A study of Homo sapiens with 6 samples.

Results

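The guidance genes examined here encode the semaphorins, plexins, neuropilins, EPH receptors, ephrins, SLIT and ROBO proteins, netrins and netrin receptors. The rule that chose them worked on gene symbols and took the genes named SEMA3 to SEMA7, PLXN, NRP, EPHA or EPHB, EFNA or EFNB, SLIT, ROBO, NTN (1, 3, 4 and 5) and UNC5, together with DCC and NEO1. It found 70 of the 58735 genes in the count table. The cells were BT549, an established human cell line of basal-like breast cancer, and the question was which transcripts respond to a compound aimed at FOXO1. RNA-Seq libraries came from cells exposed for 48 h to DMSO, the solvent control, or to AS1842856, a small molecule that binds FOXO1 and hinders its binding to DNA. What it leaves of FOXO1 activity was not measured here, so a change with the compound is not read as loss of FOXO1. The labels give a dose of 200 nM, the text of the study gives a higher one, and which was used could not be settled here. Each group held 3 libraries, named A, B and C, which the study describes as biological replicates. No genotype or other agent differed between the groups, and all 6 libraries came from this 1 cell line. The DMSO libraries held 22050288, 15289500 and 18580205 counts, and the AS1842856 libraries held 16643243, 22981832 and 17888328 counts.

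Guidance ligands were named for steering growing axons, by attracting or repelling the growth cone, and the same molecules act on cell migration, blood vessel growth and cell sorting at tissue borders. Semaphorins signal through plexins, and most of the secreted class 3 semaphorins need a neuropilin as coreceptor. EPH receptors are receptor tyrosine kinases whose ligands, the ephrins, are tethered to the membrane of the neighbouring cell, by a lipid anchor in ephrin-A proteins and by a transmembrane segment in ephrin-B proteins. SLIT proteins are secreted ligands of ROBO receptors, and netrins are laminin-related secreted proteins read by DCC, neogenin and UNC5 receptors. In breast, EPH receptors, SLIT proteins and netrins have been studied both in mammary duct formation and in tumour cell migration.

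The labelled cell type was checked first. VIM, CD44, SPARC, FN1 and ZEB1, chosen as genes that BT549 should express, were present in all 6 libraries, with VIM at 1266, 1369.7 and 1329 CPM in DMSO. These markers changed too, FN1 (1.13) and ZEB1 (0.50) being higher and VIM (-0.34), CD44 (-0.45) and SPARC (-0.47) lower on the log2 scale with AS1842856. CPM here is the count scaled to a common library size by edgeR's TMM method. Of genes typical of luminal breast cells, ESR1 and CDH1 had at most 1 count in any library, PGR at most 4 and EPCAM at most 8. KRT8 and KRT18, luminal keratins, were measurable in DMSO and were lower with AS1842856, with log2 fold changes of -3.31 and -3.30, while GATA3, present in every library, was higher by 0.28. In RNA from a whole culture, fewer cells expressing a gene and less RNA per cell cannot be told apart.

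Of the 70 guidance genes, 5 had no counts in any library (EPHA8, ROBO3, UNC5D, SEMA5A and SEMA6D) and 18 had too few counts to be tested. The latter were EPHA6, EPHA10, EPHB1, EPHB2, EPHB3, EPHB6, SLIT1, EFNA2, EFNA3, DCC, NTN3, NTN5, UNC5A, PLXNA2, SEMA3E, SEMA3G, SEMA4A and SEMA5B. The other 47 were tested within a fit of all 14338 genes that passed the filter on low counts. In edgeR's quasi-likelihood test with Benjamini-Hochberg adjustment, 40 of the 47 had an adjusted p under 0.05, against 56% of all genes tested. AS1842856 treatment raised 19 of them and lowered 21, where 27.6% of all genes tested rose and 28.4% fell. Of the called genes, 22 changed by 1 log2 unit or more (7 higher, 15 lower), and 10.6% of all genes tested did so. By role, 24 ligands were tested, of which 10 rose and 13 fell, and 23 receptors, of which 9 rose and 8 fell. The median size of the log2 fold change, whatever its direction, was 0.95 for the 47 and 0.26 for all genes tested. The values of treated and control libraries were fully separate in 40 of the 47, and in 59.9% of all genes tested. Of the 47, 6 passed the filter through the group in which they were high (EPHA7, ROBO2, SEMA3B and SEMA4D with AS1842856, PLXNB3 and SEMA6B with DMSO), so that these counts describe the tested genes and not all 70. Each of those 6 was called with separate groups. Their entry through 1 group favours that outcome, and the counts above include them. The 7 tested genes that were not called were EPHA1, EPHB4, NEO1, UNC5C, PLXNC1, PLXND1 and SEMA4G.

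**Figure D1:**
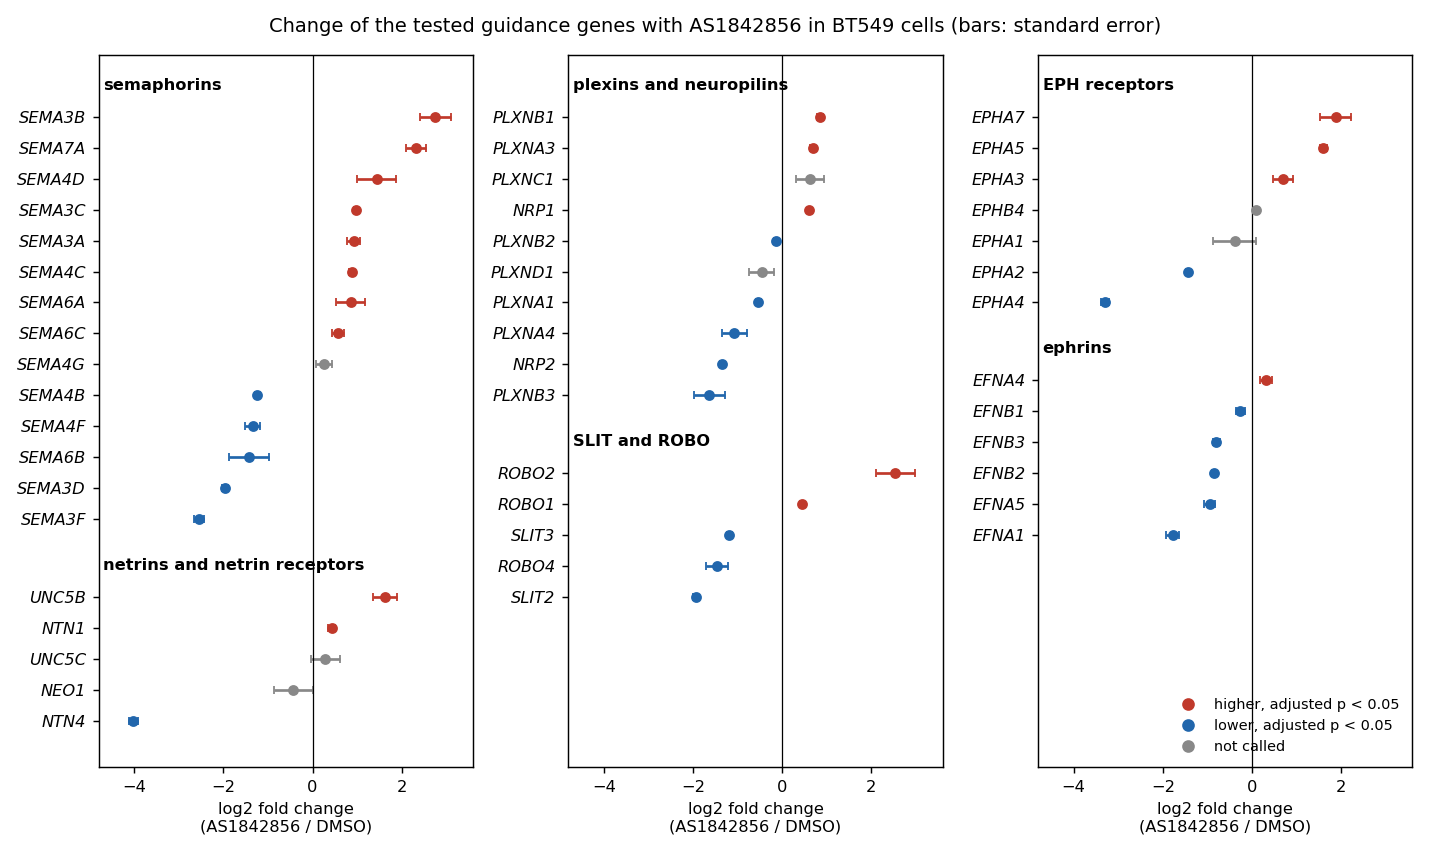
Log2 fold change (AS1842856 over DMSO, horizontal axis) of the 47 tested guidance genes by family, with standard errors as bars where these exceed the symbol. Red points were higher and blue points lower at an edgeR adjusted p under 0.05, and grey points were not called. Every tested ephrin but EFNA4 lies left of 0, both tested SLIT genes fell, and semaphorins lie on both sides, from SEMA3F at -2.55 to SEMA3B at 2.76.

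**Figure D2:**
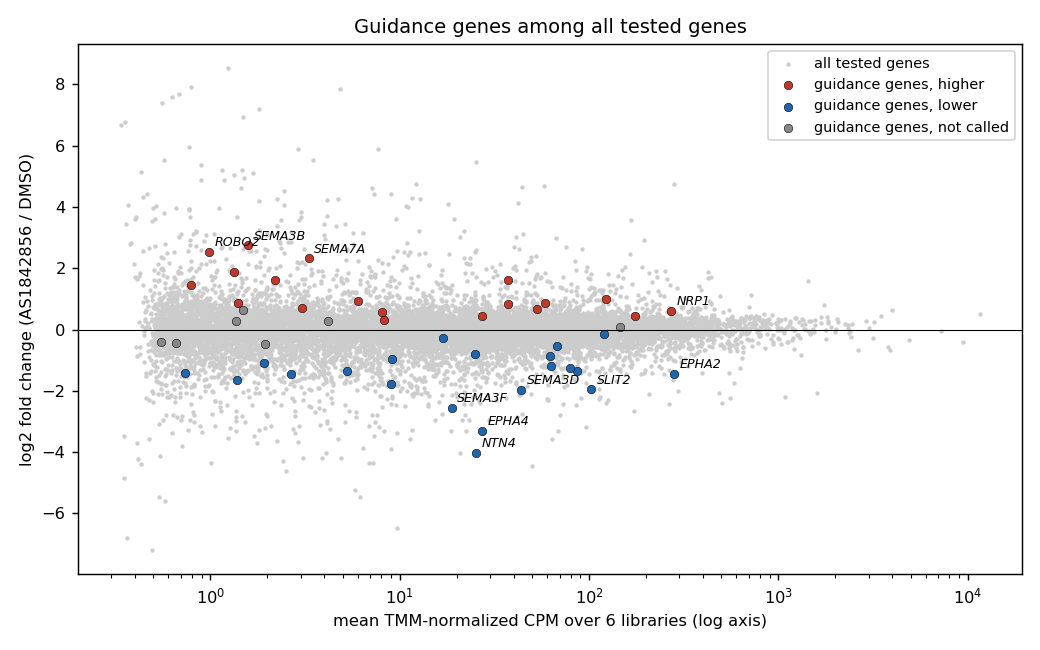
Log2 fold change (vertical axis) against mean TMM-normalized CPM over the 6 libraries (horizontal, log axis), with each of the 14338 tested genes as a grey point and the 47 guidance genes coloured by their call. EPHA4, NTN4 and SEMA3F lie among the larger decreases at mid expression, and EPHA2 and NRP1 are the most abundant guidance genes by CPM.

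Semaphorin genes moved in both directions. Of 20 members 14 were tested, and 8 rose, 5 fell and SEMA4G was not called (0.27, adjusted p = 0.205). That is 92.9% called, against 56% of all genes tested. SEMA3F, SEMA3D and SEMA4B fell from substantial levels, SEMA3C rose from an already high one, and the 3 semaphorins with the largest log2 increases, SEMA3B, SEMA7A and SEMA4D, had means of 0.395 to 1.10 CPM in DMSO.

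Among the secreted class 3 ligands, SEMA3F (ENSG00000001617, chromosome 3 from 50155045 to 50189075), a ligand that signals through NRP2, had 34.6, 31.6 and 30.4 CPM in the DMSO libraries and 5.04, 5.39 and 6.11 CPM in the AS1842856 libraries. Every treated library lay far below every control, with a log2 fold change of -2.55 (SE 0.10, edgeR adjusted p = 1.02e-66). SEMA3D (ENSG00000153993, chromosome 7 from 84995553 to 85186855) had 68.4, 70.6 and 70.1 CPM in DMSO and 19.0, 18.3 and 16.2 CPM with AS1842856. Its groups were again widely separated, at -1.96 (SE 0.07, edgeR adjusted p = 2.80e-81) on the log2 scale. SEMA3C (ENSG00000075223, chromosome 7 from 80742538 to 80922359) went the other way, with 83.9, 81.6 and 83.6 CPM in the controls and 170.1, 164 and 158 CPM after treatment. All 3 treated libraries were well above the controls, at a log2 fold change of 0.98 (SE 0.04, edgeR adjusted p = 2.34e-61). SEMA3B (ENSG00000012171, chromosome 3 from 50267558 to 50277546), which lies near SEMA3F on the same chromosome arm, had only 0.547, 0.260 and 0.377 CPM in DMSO (12, 4 and 7 counts) against 2.28, 3.20 and 2.86 CPM with AS1842856. It rose by 2.76 (SE 0.35, edgeR adjusted p = 9.69e-13) without overlap, from a level close to the limit of detection. SEMA3B was past the cutoff of the filter on low counts in its treated libraries only. SEMA3A, the founding repellent of the family, rose by 0.92 from 4.19 ± 0.272 CPM (SD, n = 3).

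Of the membrane-bound ligands, SEMA4B (ENSG00000185033, chromosome 15 from 90160604 to 90229679) fell from 112, 114 and 107 CPM to 47.7, 46.9 and 46.4 CPM in the 3 libraries of each group. The treated libraries were close together and under every control, with a log2 fold change of -1.24 (SE 0.05, edgeR adjusted p = 6.15e-67). SEMA4F (ENSG00000135622, chromosome 2 from 74654228 to 74683853) had 7.79, 7.29 and 7.64 CPM in DMSO and 2.16, 3.24 and 3.48 CPM with AS1842856. It was lower in all treated libraries, at -1.34 (SE 0.17, edgeR adjusted p = 3.78e-13). SEMA6B (ENSG00000167680, chromosome 19 from 4542593 to 4559808) was scarce in both groups, with 0.820, 1.37 and 1.02 CPM against 0.480, 0.307 and 0.393 CPM. The libraries did not overlap, and its change was -1.43 (SE 0.45, edgeR adjusted p = 0.00360). SEMA6B passed the filter on low counts through its DMSO libraries. SEMA7A (ENSG00000138623, chromosome 15 from 74409289 to 74433958), anchored to the membrane by a lipid, had 1.09, 1.30 and 0.915 CPM in the controls and 5.58, 5.17 and 5.78 CPM after treatment. No treated library came near the controls, and the log2 fold change was 2.32 (SE 0.23, edgeR adjusted p = 3.81e-19). SEMA4D (ENSG00000187764, chromosome 9 from 89360787 to 89498130), the ligand of plexin-B1, had 0.547, 0.586 and 0.161 CPM in DMSO and 0.600, 1.36 and 1.51 CPM with AS1842856, and the lowest treated library barely exceeded the highest control. Its log2 fold change of 1.44 (SE 0.43, edgeR adjusted p = 0.00228) lay between 1.04 and 1.72 when single libraries were dropped, and without DMSO replicate C the adjusted p was 0.0545. By limma on log2(FPKM + 1) without a filter, SEMA4D was at 0.07 and not called (limma adjusted p = 0.202). In the main fit SEMA4D passed the filter on low counts through its treated libraries. SEMA4C (0.88), SEMA6A (0.86) and SEMA6C (0.57) also rose, SEMA6A losing its call without DMSO replicate B (adjusted p = 0.0616) or AS1842856 replicate C (adjusted p = 0.165) and by DESeq2 (adjusted p = 0.0875). In the same limma setting SEMA6A was at 0.10 and not called (limma adjusted p = 0.127). SEMA4G shares 1170 exonic bases with MRPL43 on the opposite strand and SEMA6A overlaps SEMA6A-AS1, and as the use of strand in counting is not known, the values of both are uncertain. SEMA3F-AS1, opposite SEMA3F, held 4.84% as many counts as SEMA3F.

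Promoters were searched for a FOXO motif (GTAAACA) and a TCF/LEF motif (CTTTGAT), on both strands, in windows from 250 bases before to 50 bases after the starts that RefSeq annotates on GRCh38.p14. Of the 70 genes, 60 had at least 1 window in the table, 92 windows in all. GTAAACA was found in 3.42% of the windows of all genes and in 3 of the 92 (3.26%), those of SEMA3E, SEMA4B and SEMA5B. Of the 60 windows of tested guidance genes it was in 1 (1.67%), that of SEMA4B. CTTTGAT was found in 2.62% of the windows of all genes and in 3 of the 92 (3.26%), those of SEMA3F, SEMA4G and SEMA6D. It was in 2 of the 60 (3.33%), those of SEMA3F and SEMA4G, so that no window of a tested member held both. Each motif was in 1 of 25 windows (4%) of genes that fell and in 0 of 26 windows of genes that rose, counts too small to set apart from each other or from the share in all windows. The promoter stretches of the 2 called genes with a match are printed 5′ to 3′ on the plus strand, as the 250 bases before the annotated start with the motif in capitals. That of SEMA4B is chr15:90184670-90184919, with the motif starting 53 bases before the start, and that of SEMA3F, 1 of its 3 annotated starts, is chr3:50158769-50159018, with the motif 48 bases before it. The window of SEMA4B is the most upstream of the 3 that RefSeq gives for it. Both stretches lie inside longer GENCODE transcripts of the gene, that of SEMA3F with no base in an exon and that of SEMA4B with 2 of its 250 bases in one. A match of letters is a description and shows no binding. The median GC content of the 250 bases before the start was 65.4% for the 60 windows of tested guidance genes and 58% for all windows.
SEMA4B: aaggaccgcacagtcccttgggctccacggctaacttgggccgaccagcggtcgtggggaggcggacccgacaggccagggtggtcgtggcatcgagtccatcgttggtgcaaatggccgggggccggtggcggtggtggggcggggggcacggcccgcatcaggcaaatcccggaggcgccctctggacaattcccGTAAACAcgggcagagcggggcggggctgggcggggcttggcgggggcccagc
SEMA3F: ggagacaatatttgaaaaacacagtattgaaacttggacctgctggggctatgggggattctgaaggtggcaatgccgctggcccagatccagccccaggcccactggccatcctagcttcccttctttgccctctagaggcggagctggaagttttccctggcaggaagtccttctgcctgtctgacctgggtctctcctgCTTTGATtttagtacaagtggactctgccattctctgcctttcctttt

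Among the receptors of semaphorins, the neuropilins moved apart, and NRP1 rose while NRP2, the coreceptor of SEMA3F, fell. Of 11 plexin and neuropilin genes 10 were tested, and 80% of these were called, beside 56% of all genes tested. The 3 that rose were NRP1, PLXNA3 and PLXNB1, and the 5 that fell were NRP2, PLXNA1, PLXNA4, PLXNB2 and PLXNB3. PLXNC1 and PLXND1 were not called.

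NRP1 (ENSG00000099250, chromosome 10 from 33177492 to 33336262), which also binds VEGF, had 219, 217 and 206 CPM in DMSO and 332, 326 and 322 CPM with AS1842856. It was higher in all 3 treated libraries, with a log2 fold change of 0.61 (SE 0.04, edgeR adjusted p = 9.91e-41). For NRP2 (ENSG00000118257, chromosome 2 from 205681990 to 205798133) the controls had 130.4, 124 and 119 CPM and the treated libraries 47.9, 49.9 and 48.8 CPM. The groups lay far apart, at -1.35 (SE 0.05, edgeR adjusted p = 2.47e-75). PLXNA4 (ENSG00000221866, chromosome 7 from 132123332 to 132648688), a receptor for class 3 and class 6 semaphorins, had 3.05, 2.86 and 1.88 CPM against 1.68, 1.05 and 1.01 CPM. The closest libraries of the 2 groups were near each other, and its change was -1.08 (SE 0.28, edgeR adjusted p = 4.44e-04). By limma on log2(FPKM + 1) without a filter, PLXNA4 was at -0.11 and not called (limma adjusted p = 0.0995). PLXNB3 (ENSG00000198753, chromosome X from 153764196 to 153779346) had 2.28, 2.08 and 2.05 CPM in DMSO and 0.240, 1.18 and 0.505 CPM with AS1842856, replicate B standing above the other treated libraries. Its log2 fold change was -1.64 (SE 0.35, edgeR adjusted p = 1.18e-05), and -2.49 without AS1842856 replicate B. The gene passed the filter on low counts through its DMSO libraries. PLXNB3 shares 1432 exonic bases with SRPK3 on the same strand, which had 109.4% as many counts, so reads of the 2 genes may have been exchanged.

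The abundant plexins moved less than PLXNA4 and PLXNB3. PLXNB1, the receptor of SEMA4D, rose by 0.84 and PLXNA3 by 0.68, while PLXNA1 fell by 0.54 on the log2 scale. PLXNB2, the plexin with the highest FPKM, had 135, 119.7 and 122 CPM in DMSO and 114, 114 and 114 CPM with AS1842856. All treated libraries lay just under the controls. The change of -0.15 (SE 0.04, edgeR adjusted p = 0.00197) became -0.09 without DMSO replicate A, the highest control, and was then not called. PLXNA3 shares 11 exonic bases with LAGE3 on the opposite strand. PLXNC1, a receptor of SEMA7A, had a log2 fold change of 0.63 that was not called (adjusted p = 0.0786), and it overlaps CEP83 on the opposite strand, a gene with many more counts.

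By mean FPKM, EPHA2 was the highest EPH receptor in both groups, with 98.6 in DMSO and 36.3 with AS1842856, and it fell, while EPHB4 had 21.8 and 23.1. EPHA4 fell further, EPHA5 and EPHA7 rose, and EPHB4, the main EPHB receptor of these cells, showed no called change. Of 14 members 7 were tested, 3 rose (EPHA3, EPHA5 and EPHA7), 2 fell (EPHA2 and EPHA4), and EPHA1 and EPHB4 were not called. The called share was 71.4%, where 56% of all genes tested were called.

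EPHA2 (ENSG00000142627, chromosome 1 from 16124337 to 16156087), the receptor best known for ephrin-A1, had 428, 417 and 394 CPM in the DMSO libraries and 147, 154 and 155 CPM in the AS1842856 libraries. The separation was wide beside the spread in either group, with a log2 fold change of -1.44 (SE 0.04, edgeR adjusted p = 5.95e-104). EPHA4 (ENSG00000116106, chromosome 2 from 221418027 to 221574202), which binds ephrins of both classes, had 51.6, 49.5 and 47.5 CPM in DMSO and 4.68, 5.43 and 4.88 CPM with AS1842856. That was the largest decrease among the EPH receptors tested, at -3.30 (SE 0.09, edgeR adjusted p = 4.67e-96). EPHA5 (ENSG00000145242, chromosome 4 from 65319563 to 65670495), known mainly from the nervous system, had 19.4, 17.8 and 18.2 CPM in the controls and 59.3, 56.5 and 53.3 CPM after treatment. It was higher in all treated libraries, by 1.60 (SE 0.07, edgeR adjusted p = 5.47e-62), and EPHA5-AS1 on the opposite strand held 5.32% as many counts. EPHA7 (ENSG00000135333, chromosome 6 from 93240020 to 93419547) was low throughout, with 0.501, 0.260 and 0.915 CPM against 2.04, 2.50 and 1.74 CPM. The groups did not overlap, and it rose by 1.87 (SE 0.36, edgeR adjusted p = 1.27e-06). EPHA7 passed the filter on low counts through its treated libraries. EPHA3 rose by 0.70 (edgeR adjusted p = 0.00419) with groups that overlapped. It was at 0.22 and not called by limma on log2(FPKM + 1) without a filter (limma adjusted p = 0.118). EPHB4, the receptor of ephrin-B2, had 150.3, 134 and 140.2 CPM in DMSO and 149, 152 and 148 CPM with AS1842856, so that DMSO replicate A lay within the treated range. Its log2 fold change of 0.08 (SE 0.04, edgeR adjusted p = 0.0815) was not called, and it was 0.13 (adjusted p = 0.0108) without DMSO replicate A. EPHB4 shares 69 exonic bases with SLC12A9, and EPHA1, at under 1 CPM in every library, overlaps the highly expressed ZYX, both on opposite strands.

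Most tested ephrin genes fell. Of 8 members 6 were tested, EFNA1, EFNA5, EFNB1, EFNB2 and EFNB3 were lower, and EFNA4 was higher by 0.31 (adjusted p = 0.0297). All of the tested ephrins were called, to be read beside 56% of all genes tested.

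EFNA1 (ENSG00000169242, chromosome 1 from 155127460 to 155134857), the ligand of EPHA2, had 14.5, 13.7 and 13.3 CPM in DMSO and 4.08, 2.72 and 5.55 CPM with AS1842856. The treated libraries varied among themselves but all lay well below the controls, with a log2 fold change of -1.78 (SE 0.14, edgeR adjusted p = 8.30e-25). EFNB2 (ENSG00000125266, chromosome 13 from 106489731 to 106535662), the ligand of EPHB4, had 79.8, 80.1 and 79.9 CPM in the controls and 43.4, 44.6 and 44.9 CPM after treatment. Both groups were tight and it fell by 0.85 on the log2 scale (SE 0.05, edgeR adjusted p = 4.41e-38). EFNA5 changed by -0.95 and EFNB3 by -0.80, each lower in 3 of 3 treated libraries. The changes of EFNB1 (-0.26) and EFNA4 were smaller, and their calls, though not their sizes, depended on the tool or on single libraries. EFNA4 was not called by DESeq2 (0.32, adjusted p = 0.124), nor in edgeR without the filter or without DMSO replicate B, DMSO replicate C or AS1842856 replicate A. EFNB1 was not called by DESeq2 (-0.26, adjusted p = 0.062) or without AS1842856 replicate B (-0.25, adjusted p = 0.0507).

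Both SLIT ligands that were tested fell, while their receptor ROBO1 rose slightly. Of 7 SLIT and ROBO genes 5 were tested, all 5 were called, SLIT2, SLIT3 and ROBO4 were lower, and ROBO1 and ROBO2 were higher. Among all genes tested the called share was 56%.

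SLIT2 (ENSG00000145147, chromosome 4 from 20253260 to 20620561) had 178, 163 and 149 CPM in DMSO and 42.3, 44.1 and 40.8 CPM with AS1842856. The lowest control stood far above the highest treated library, and the log2 fold change was -1.94 (SE 0.05, edgeR adjusted p = 6.71e-80). SLIT3 (ENSG00000184347, chromosome 5 from 168661733 to 169301129) had 92.8, 86.1 and 83.7 CPM against 37.0, 38.7 and 39.8 CPM. It too was lower in every treated library, at -1.19 (SE 0.05, edgeR adjusted p = 1.54e-57). ROBO1 (ENSG00000169855, chromosome 3 from 78597240 to 79767815), by far the most abundant ROBO gene, had 152, 149 and 144 CPM in the controls and 199, 200.0 and 203 CPM with AS1842856. The increase was modest and well outside the spread, at 0.44 (SE 0.04, edgeR adjusted p = 1.18e-22). ROBO2 (ENSG00000185008, chromosome 3 from 75906695 to 77649964) had 0.319, 0.260 and 0.269 CPM in DMSO, or 7, 4 and 5 counts, and 1.20, 1.93 and 1.91 CPM with AS1842856. It rose by 2.54 (SE 0.43, edgeR adjusted p = 4.16e-08) but stayed at low levels in all libraries. Only the treated libraries of ROBO2 lay past the cutoff of the filter on low counts. ROBO4 (ENSG00000154133, chromosome 11 from 124883691 to 124898500), known from endothelium, had 4.65, 4.10 and 3.07 CPM against 1.20, 1.45 and 1.63 CPM. It was lower in all treated libraries, at -1.46 (SE 0.24, edgeR adjusted p = 2.49e-08), while the endothelial genes PECAM1, CDH5 and VWF had at most 3 counts in any library.

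NTN4, a netrin found in basement membranes, showed the largest log2 decrease of the 47 tested guidance genes, NTN1 rose modestly, and UNC5B, a repulsive netrin receptor, rose from a low level. Of 10 netrin and netrin receptor genes 5 were tested, 2 rose (NTN1 and UNC5B), 1 fell (NTN4), and NEO1 and UNC5C were not called. At 60% called, this family was close to the 56% of all genes tested. DCC, the attractive netrin receptor, had 1 count over the 6 libraries, too few to show any difference.

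NTN4 (ENSG00000074527, chromosome 12 from 95657807 to 95791152) had 47.5, 44.9 and 50.9 CPM in DMSO and 2.64, 3.11 and 3.03 CPM with AS1842856. All 3 treated libraries were near 3 CPM, and the log2 fold change of -4.02 (SE 0.11, edgeR adjusted p = 2.82e-103) stayed between -4.07 and -3.96 when single libraries were dropped. UNC5B (ENSG00000107731, chromosome 10 from 71212570 to 71302864) had 0.911, 0.846 and 1.45 CPM in the controls and 4.26, 3.37 and 2.36 CPM after treatment. The treated libraries were spread but all above the controls, at 1.62 (SE 0.27, edgeR adjusted p = 3.75e-08). NTN1 had 23.6, 20.8 and 25.0 CPM in DMSO and 32.0, 28.4 and 33.5 CPM with AS1842856. It was higher in 3 of 3 treated libraries, at 0.43 (SE 0.08, edgeR adjusted p = 3.86e-07). NEO1, which encodes neogenin, was low in all libraries with overlapping groups (-0.43, adjusted p = 0.424), and UNC5C likewise (0.29, adjusted p = 0.476).

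**Figure D3:**
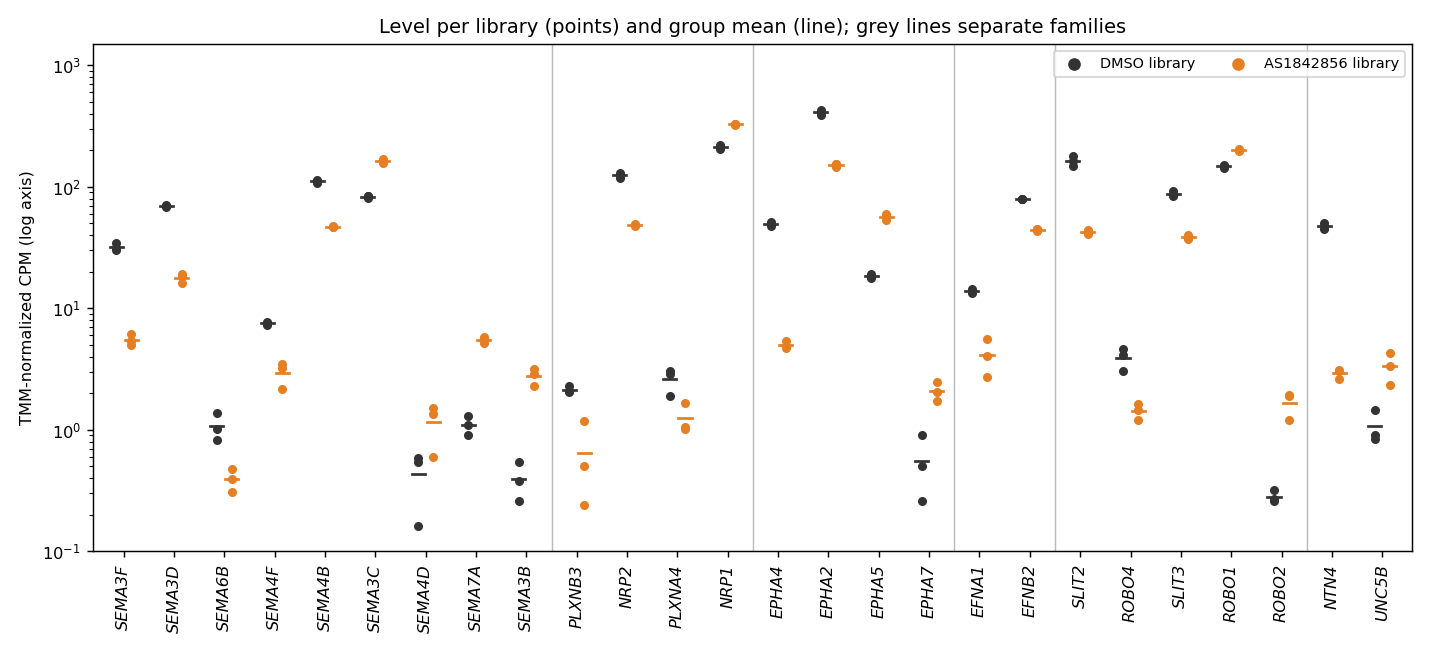
TMM-normalized CPM (vertical, log axis) of the 26 guidance genes given in full, with each library as a point (black DMSO, orange AS1842856) and the group mean as a line. In none of the 26 do the points of the groups overlap, though those of SEMA4D nearly meet, and the genes range from under 1 CPM (ROBO2 in DMSO) to 428 CPM (EPHA2 in DMSO replicate A).

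To set the genes of a family side by side, deposited FPKM values, which divide by gene length, were summed within each library. These sums are levels, described without a test. Summed semaphorin FPKM was nearly the same in both groups, 55.0 ± 0.957 in DMSO and 54.4 ± 0.422 with AS1842856 (mean ± SD, n = 3), but its make-up was not. SEMA4B led in DMSO with 28.6% of the sum, and SEMA3C led after treatment with 47.8%, followed by SEMA4C with 22.5%. Plexin and neuropilin FPKM was 61.5, 57.7 and 57.3 in the DMSO libraries and 63.2, 63.1 and 63.3 with AS1842856, the share of NRP1 going from 31.4% to 44.6%.

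EPH receptor FPKM was 135, 129 and 125 in DMSO and 65.9, 67.7 and 66.8 with AS1842856, a ratio of means of 0.516. The loss lay in the EPHA genes, with 108 ± 4.44 in DMSO and 43.6 ± 0.720 after treatment, while the EPHB sum, nearly all EPHB4, was 21.9 ± 1.34 and 23.2 ± 0.386. EPHA2 made up 76.2% of the EPH receptor sum in DMSO and 54.3% with AS1842856. Ephrin FPKM went from 44.9 ± 0.850 to 29.1 ± 0.344, with EFNB2 leading in both groups. The SLIT sum was 22.8 ± 1.83 in DMSO and 7.04 ± 0.152 after treatment, and the ROBO sum 14.1 ± 0.487 and 18.7 ± 0.223, so that SLIT exceeded ROBO in all 3 controls and ROBO exceeded SLIT in all 3 treated libraries. Netrin and netrin receptor FPKM had a ratio of 0.416, and the leading gene was NTN4 in DMSO (73.4%) and NTN1 with AS1842856 (75.5%).

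**Figure D4:**
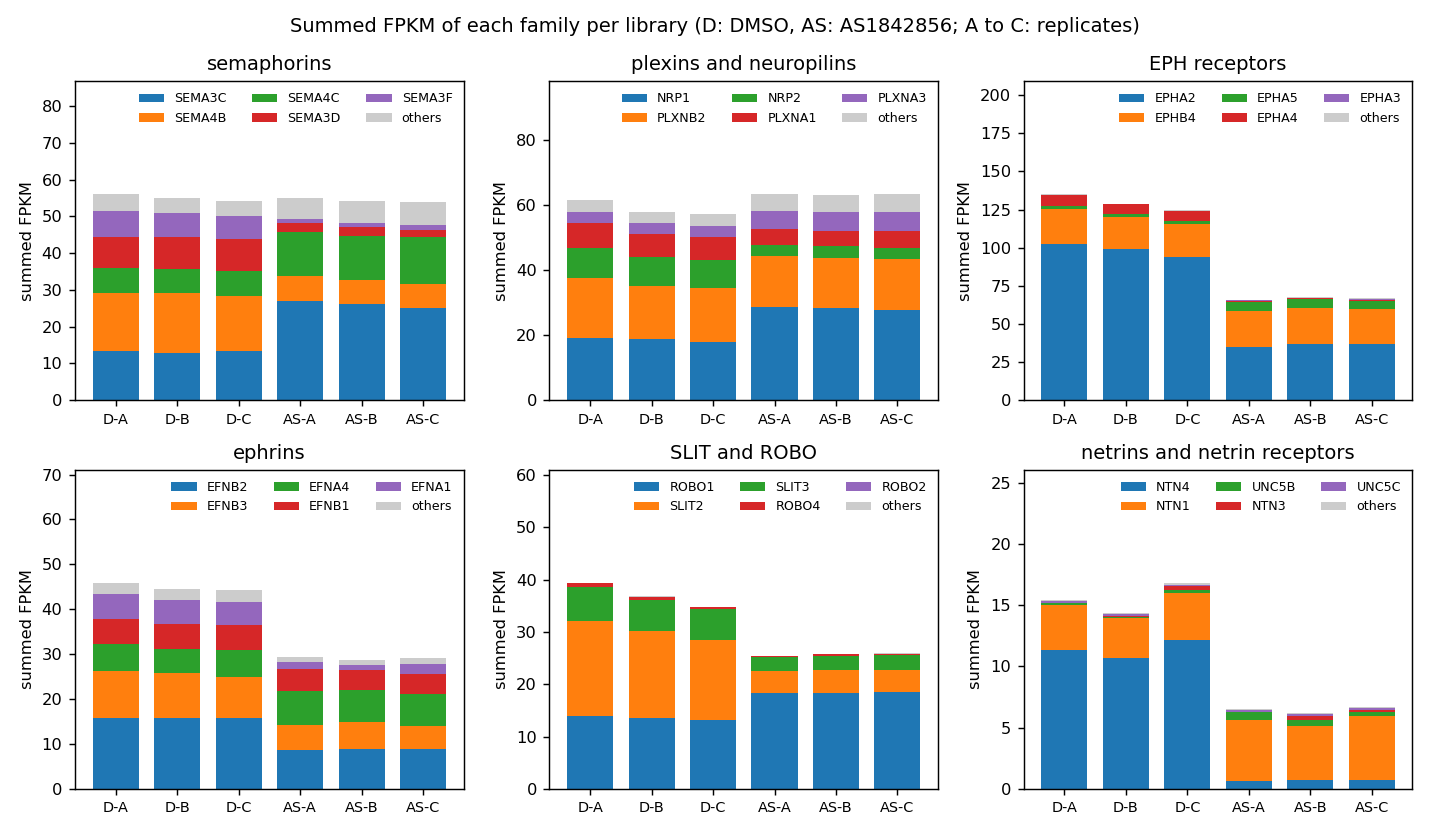
Summed FPKM (vertical axis, from 0) of each guidance family in each library (horizontal axis, D for DMSO and AS for AS1842856), with the 5 genes of highest mean FPKM in colour and the others in grey. EPH receptor, ephrin, SLIT and ROBO, and netrin bars are lower in all treated libraries, while semaphorin bars keep their height as SEMA3C replaces SEMA4B as the largest share.

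Genes that carry or modify guidance signals, most of them inside the cell, were read as well, in lists that overlap none of the families. Of 66 such genes and other guidance molecules, in 4 lists written from general knowledge, 57 were tested, 14 rose and 30 fell (44 called, or 77.2%, against 56% of all genes tested). Earlier results of these data were known when the lists were chosen. Of the 57, 5 passed the filter through the group in which they were high (SRGAP3 and DRAXIN with AS1842856, FLRT1, NTNG2 and VAV3 with DMSO), so these counts describe the tested genes only. The median size of their log2 fold change was 0.33, beside 0.26 for all genes tested. Of 17 tested genes acting downstream of plexins, 4 rose and 7 fell (64.7% called). Among them DPYSL3, a collapsin response mediator protein, went from 1.91, 2.93 and 2.58 CPM to 6.72, 7.31 and 7.85 CPM at a log2 fold change of 1.58 (SE 0.18, edgeR adjusted p = 9.87e-16), and MICAL1, an actin-oxidizing enzyme, rose by 0.54. Of the other collapsin response mediator genes, DPYSL2 (mean 200 CPM in DMSO) changed by -0.23. CRMP1 and DPYSL4 were not called, and DPYSL5 was not tested. RRAS, a small GTPase that plexins inactivate, changed by -0.55 and MICAL3 by -0.46. Of 16 tested genes in the EPH and ephrin list, 4 rose and 7 fell (68.75% called). By DESeq2 or limma 2 rose, and 2 to 4 when single libraries were dropped (2 without AS1842856 replicate B). RASA1, a Ras GTPase-activating protein that binds EPH receptors, had 163, 169.8 and 158 CPM in DMSO and 62.9, 62.5 and 60.7 CPM with AS1842856, a change of -1.40 (SE 0.04, edgeR adjusted p = 1.42e-85). The groups were far apart, and NGEF, the exchange factor ephexin that EPHA receptors activate, changed by -1.81. The adaptors NCK2 (0.50) and CRK (0.33) rose.

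The list for SLIT, ROBO and netrin signalling also holds the cell-surface molecules GPC1 and DAG1. Of its 15 tested genes 4 rose and 10 fell, or 93.3% called, beside 56% of all genes tested. All but SRGAP3 changed by less than 1 on the log2 scale. SRGAP3, a GTPase-activating protein of the ROBO pathway, rose by 2.23 from 0.374 ± 0.167 to 1.72 ± 0.271 CPM (SD, n = 3). ENAH, an actin regulator, rose by 0.19. ABLIM1 (-0.79) and GPC1 (-0.66), a heparan sulphate proteoglycan that binds SLIT2, fell. Of 9 tested guidance ligands and receptors outside the families above, 2 rose and 6 fell (88.9% called). L1CAM, an adhesion molecule of axons, had 14.4, 9.38 and 12.4 CPM in DMSO and 0.600, 1.01 and 0.841 CPM with AS1842856, a change of -3.85 (SE 0.20, edgeR adjusted p = 5.77e-50). Every treated library was at about 1 CPM or lower. FLRT1, a membrane protein that binds UNC5 receptors, changed by -3.71. The increases were NTNG1, a membrane-anchored netrin (1.64), and DRAXIN, a secreted repellent that binds netrin receptors. NTNG2, of the same family as NTNG1, went the other way, at -3.22 (mean 3.48 CPM in DMSO and 0.385 CPM with AS1842856). DRAXIN had 3, 2 and 0 counts in the controls and 23, 29 and 30 counts after treatment. With the DMSO libraries set to 3 counts each, the mean treated level was 8.78-fold higher. This ratio carries no error and is not a confidence limit.

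Markers of other cell types were read beside these changes, as several guidance genes are best known from neurons, vessels and immune cells. Of 5 neuronal markers 3 rose (TUBB3, GAP43 and SYP), MAP2 was not called, and the nuclear marker RBFOX3 had at most 1 count in any library. Their summed level was 14.0, 13.9 and 12.3 CPM in DMSO and 20.2, 20.7 and 23.3 CPM with AS1842856, most of it TUBB3. Of 3 leucocyte markers PTPRC rose by 1.48, CD14 had too few counts to be tested and CD3E had none, with summed levels of 1.41, 2.02 and 1.02 CPM in DMSO and 3.48, 3.55 and 4.65 CPM with AS1842856. Of the 3 endothelial markers CDH5 had no counts, and the summed level was at most 0.240 CPM in any library. The part of these markers in the changes of the guidance genes was not tested.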

How the data were processed

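RNA-Seq libraries of BT549 cells were grouped by the treatment in the labels (3 DMSO, 3 AS1842856). The authors deposited raw counts per gene, without normalization, and FPKM values per library, scaled by gene length and library size. The submitters' processing notes name CASAVA, Bowtie 0.12.2 and GRCh38, the study's methods name STAR, and the counting tool and its use of strand are not given in the sources used here. All 58735 gene identifiers were found in GENCODE 29 (GRCh38), the source of symbols and positions. FPKM tables listed 25015 genes.

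Counts were analysed with edgeR 4.0.16 in R 4.3.3. filterByExpr (minimum count 10, minimum total 15) left 14338 genes holding 99.9% of counts. Libraries were scaled by TMM (factors 0.995 to 1.01), compared with robust glmQLFit and glmQLFTest, no block, and p-values adjusted by Benjamini-Hochberg over all genes tested, with a threshold of 0.05. The SE is the size of the log2 fold change divided by the square root of F. With 15289500 to 22981832 counts per library, the common biological coefficient of variation was 0.0374. Every replicate pair differed by more than sampling noise (chi-square per degree of freedom 2.38 to 3.28). Labels do not say whether replicates came from separate cultures, so p-values may measure technical spread. The ratio that sets DMSO libraries to 3 counts uses the treated mean and carries no error.

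Members given in full had an adjusted p under 0.05, a log2 change of at least 1 and a mean of at least 1 CPM in a group, or were the highest of their family by FPKM. Of each effector list the 2 largest rises and falls at that mean were named. Members, lists and rules were chosen with earlier results of these data known. The script was tested on simulated counts, with a small set of changed genes above a minimum mean count. That does not test calls at low counts. Alternatives were DESeq2 1.42.0, other scalings and filters, limma 3.58.1 on log2(FPKM + 1) or log2(FPKM + 0.1), a replicate block and each library left out. Deviations from the group mean were hardly correlated between libraries of the same letter (0.042, -0.012 and -0.00332). Whether the samples were paired by design is not known. Promoter sequences came from RefSeq (GRCh38.p14). Results of 1 marker gene are not reported here.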

Additional observations from a re-analysis of the deposited data

How the results depend on the processing

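Of 47 guidance genes tested, 0 changed direction under 15 alternatives (9 with all libraries, 6 leaving out 1 library), and 33 of 40 called genes stayed called wherever they could be fitted. Sizes on log2(FPKM + 1) were smaller for genes of low FPKM, as adding 1 shrinks them, with ROBO2 at 0.11 in place of 2.54, SEMA3B at 0.47 in place of 2.76, EPHA7 at 0.25 in place of 1.87, PLXNA4 at -0.11 in place of -1.08, EPHA4 at -2.18 in place of -3.30 and NTN4 at -2.87 in place of -4.02. The 7 that lost the call at least once were EFNA4, EFNB1, EPHA3, PLXNA4, PLXNB2, SEMA4D and SEMA6A, mostly small changes or low counts. With DESeq2, 37 members were called, and with a replicate block 40, the count without it. An unchanged count cannot show whether letters shared by libraries of both groups mark pairs. Counts were lower under stricter filters and under limma. On limma with a mean FPKM of at least 0.5, with either pseudocount, 12 members rose in place of 19, semaphorins rose in 5 in place of 8, plexins and neuropilins fell in 2 in place of 5, EPH receptors rose in 1 in place of 3, SLIT and ROBO in 1 in place of 2, netrins and their receptors in 1 in place of 2, and the other guidance list in 0 in place of 2. With a mean of at least 50 counts, semaphorins rose in 5, plexins and neuropilins fell in 3, and EPH receptors rose in 2, SLIT and ROBO in 1, netrins in 1 and the other guidance list in 1. On limma without a filter, plexins and neuropilins fell in 3 and EPH receptors rose in 2. The 1 ephrin that rose, EFNA4, was not called by DESeq2 or without a filter, so that 0 ephrins rose there, and between 0 and 1 with each library left out. EPH and ephrin effectors rose in 2 in place of 4 with DESeq2 and on limma, and in 2 to 4 with each library left out. The limma settings changed both the test and, with the FPKM minimum, the genes tested, and PLXNB2 was fitted there and not called (adjusted p = 0.0521 and 0.0525). The cause of these moves was not tested. Genes near the filter, at under 1 CPM, rest on few counts, and their sizes are limited by depth.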
